A study of Mus musculus with 22 samples.

Results

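Interferon-stimulated genes are the genes that cells switch on when an interferon binds its receptor. The 38 genes described here were taken by symbol from a fixed list, and 36 of them had a probe set of their own on the arrays, out of 18193 genes measured in the series. The probe set of Isg15 is annotated jointly to Isg15 and Gm9706, so no value is given for Isg15, and Ifi44 was not analysed here. Each gene was represented by the probe set with the highest mean over the 22 arrays, leaving out sets marked as prone to cross-hybridization (suffix _x_at) where the gene had another, and 15 of the 36 had several sets.

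RNA was measured in 3 groups. The first was 3 samples of side population cells of A2C12 treated with a monoclonal antibody against mouse EpCAM at 100 µg/ml for 48 h. The second was 3 samples of untreated A2C12 side population cells, and the third was 16 lungs of non-transgenic C57BL/6 mice, 8 with the label male and 8 with the label female, with no age given. A2C12 is a single lung tumour line from a C57BL/6 mouse that carried both c-myc and c-raf transgenes, so both cell groups share these transgenes and the lungs lack them. The side population is the fraction that pumps out a Hoechst dye, and it was sorted by flow cytometry. The labels call the samples of a group biological replicates without saying which came from separate cultures, so p-values measure the spread between these samples.

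Type I interferons are made after a cell detects foreign nucleic acid, and they signal through a receptor whose kinases phosphorylate STAT proteins. A complex that contains STAT2 and IRF9 binds the interferon-stimulated response element, a short DNA element in the promoters of these genes, while interferon gamma acts through the gamma-activated sequence. The products of the genes sense viral nucleic acid, block viral entry, translation or release, and feed back on the signal itself. Many are also made at a low level without infection, and in lung they are found in leukocytes, endothelium and epithelium.

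Most of these genes were lower in the sorted tumour cells than in lung, and none was called higher. In antibody-treated cells 24 of 36 fell and 0 rose, where 23.9% of all 15138 genes tested were called lower and 17.2% higher. In untreated cells 24 of 36 fell and 0 rose, where 23.7% of all 15197 genes tested were called lower and 17.8% higher. Of the 36 genes, 9 exceeded the filter on low values on no antibody-treated array and 12 on no untreated array. They passed it through lung alone and could only have been called lower, and they hold 7 of the 24 calls in antibody-treated and 10 of the 24 in untreated cells. The filter asked for at least 3 arrays, so genes above it on 1 or 2 arrays of a cell group also needed lung. In antibody-treated cells these were Irf7, Ifih1, Zbp1, Oas1a, Gbp3, Igtp, Rsad2 and Parp14, all called lower. In untreated cells they were Irf7, Dhx58, Zbp1, Oas1a and Oas2, all but Dhx58 called lower. The median log2 change over the 36 genes was -1.70 in antibody-treated and -1.78 in untreated cells, against -0.01 and 0.01 over all genes tested. Called means a limma adjusted p below 0.05 and a change of at least 2-fold. A change is a difference of log2(intensity + 16) after quantile normalization, which understates the change of genes near background, while the intensities below are as deposited. Both comparisons use the same 16 lungs and are given side by side for that reason.

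**Figure D1:**
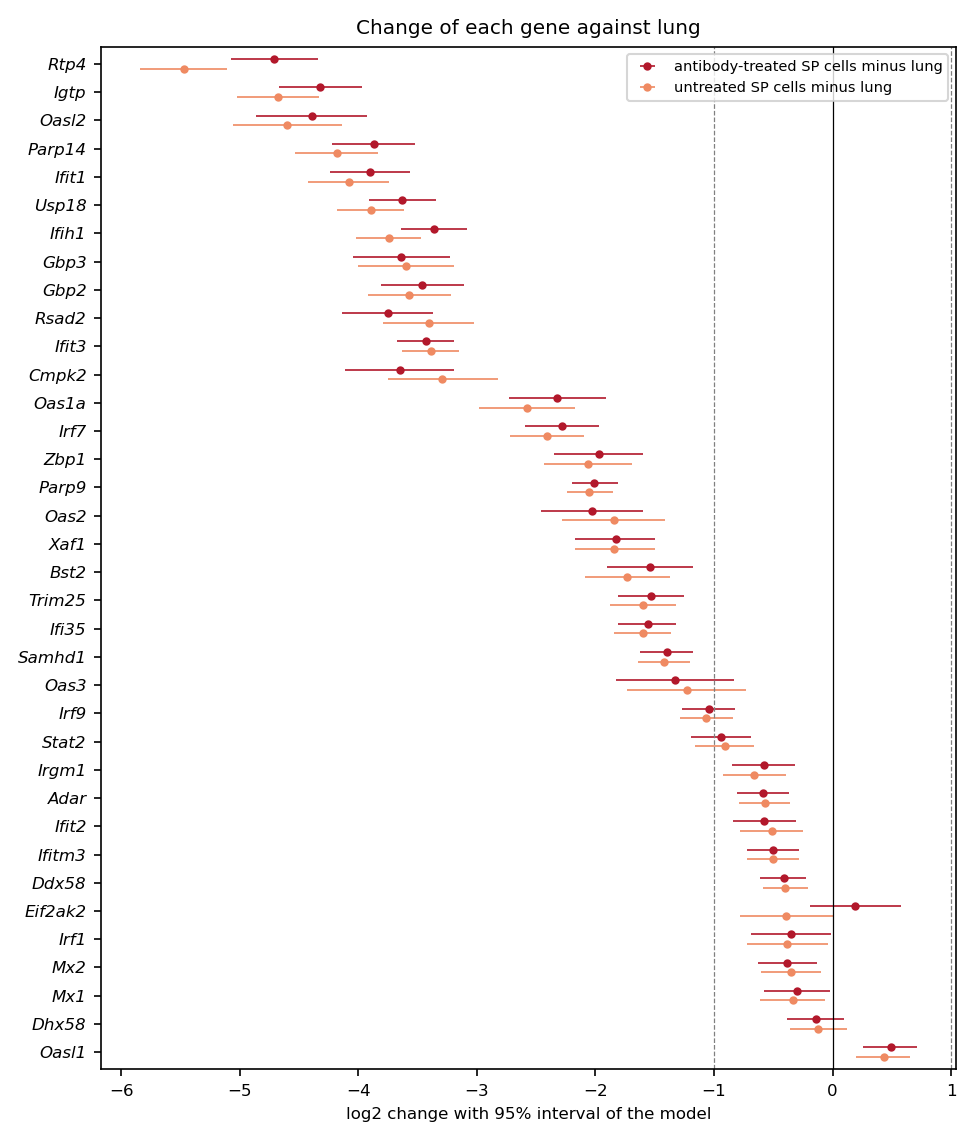
Log2 change against lung of the 36 measured genes, in antibody-treated and untreated side population cells (n = 3 each, against 16 lungs), with the 95% interval of the model and dashed lines at a 2-fold change. The points run from Rtp4 at -4.71 and -5.47 to Oasl1 at 0.49 and 0.43, and 12 genes lie below -3 in each group.

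Large falls were common among the 36. In antibody-treated cells 16 genes changed by -2 or lower, 12 by -3 or lower and 3 by -4 or lower, against 12.2%, 6.71% and 3.49% of all genes tested. In untreated cells these counts were 16, 12 and 5, against 12.5%, 6.81% and 3.65%. Of the genes at -3 or lower, only Ifit3 and Gbp2 exceeded the filter on low values on all 3 antibody-treated arrays. On all 3 untreated arrays only Ifit3, Gbp2 and Rsad2 did so. The others needed lung arrays to pass the filter. All arrays of a cell group lay below all 16 lungs on the normalized scale for 29 of 36 genes in antibody-treated cells, where 33.2% of all genes did so. The count was 28 of 36 in untreated cells, where the share was 33.7%. Oasl1 alone lay above all lungs, in each of the cell groups, where 30.1% and 32.2% of all genes did so.

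**Figure D2:**
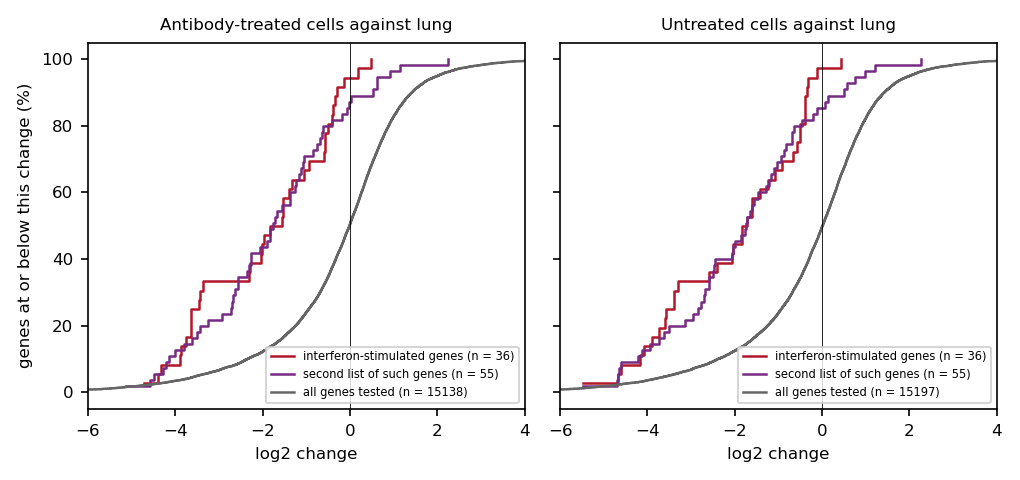
Share of genes (%) at or below each log2 change against lung, for antibody-treated cells on the left and untreated cells on the right. The 36 interferon-stimulated genes have medians of -1.70 and -1.78, a second list of 55 such genes has -1.77 and -1.74, and all genes tested have -0.01 and 0.01.

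Markers of leukocytes, endothelium and lung epithelium were also low in the sorted cells. The 8 leukocyte markers summed to an intensity of 186 to 249 in antibody-treated cells and 166 to 245 in untreated cells, against 10020 to 14086 in lung, and all 8 fell, with Ptprc at 0.0221 and 0.746 against 2323. Likewise the 8 endothelial markers summed to 72.4 to 85.6 in antibody-treated and 82.2 to 89.0 in untreated cells, against 14456 to 28558 in lung. The 8 lung epithelial markers summed to 107 to 153 in antibody-treated and 83.2 to 94.4 in untreated cells, against 58584 to 76324 in lung, and Scgb1a1 had 14.5 and 7.13 against 13226. All 9 macrophage and monocyte markers measured fell. They summed to 783 to 1050 in antibody-treated and 832 to 1175 in untreated cells, against 13303 to 18803 in lung. Of 4 plasmacytoid dendritic cell markers tested, 3 fell in each cell group, among them Bst2, itself an interferon-stimulated gene. The part of these markers in the falls was not tested. In lung tissue, fewer cells of a type and less RNA per cell cannot be told apart.

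The arrays and labels set further limits. Of 6 simple epithelial markers 5 fell in each cell group, though only 2 exceeded the filter on low values on no array of the group. Epcam, the target of the antibody, had a mean intensity of 4.22 in antibody-treated and 3.19 in untreated cells, against 842 in lung. Krt19 remained at 1559 and 1732, against 2072 in lung, and Myc, a transgene of the line, was higher in both cell groups. The spiked control transcript dap read 438 to 761 in antibody-treated and 677 to 753 in untreated cells, against at most 3.70 in lung. Any difference in handling behind this cannot be told apart from tissue. Lungs labelled male 3 and male 4 went against their label, with Xist at 1512 and 1583 and the Y-linked Uty at 8.27 and 9.46, where the other lungs labelled male had Xist at 12.7 to 24.0. Without them, 24 genes fell in each cell group, and the medians were -1.75 in antibody-treated and -1.85 in untreated cells. Mean intensity was 294 to 300 on antibody-treated, 291 to 304 on untreated and 270.1 to 312.7 on lung arrays. Median intensity was 39.4 to 40.1, 39.5 to 40.7 and 47.9 to 54.6 in the same order, so it was higher on lung arrays. The log2 ratio of the 3′ to the 5′ Gapdh control set was -0.12 to 0.40, -0.13 to 0.07 and 0.22 to 1.02. How precise a value is depends on how many arrays stand behind it.

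Promoter sequence was compared because the response element is what these genes are known to share. In the RefSeq windows of 250 bases before to 50 bases after each gene start, on GRCm38.p6, 29 of the 38 genes had a window. The element was searched on both strands as GAAANNGAAA, and 16 of the 29 genes held it, a share of 55.2%, against 3.99% of the 27025 genes in the table. The gamma-activated sequence was searched as TTCNNNGAA, which reads the same on both strands, and 10 of the 29 genes held it, a share of 34.5%, against 9.55% of all genes. The matches overlapped in 2 windows of these genes and in 24 windows of the whole table.

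The response element was found in 10 of 18 genes called lower in untreated cells and in 5 of 9 tested genes that were not called, 55.6% of the genes in each set. Some genes have several windows, and counted by window the element stood in 10 of 20 (50%) of the genes called lower and in 5 of 13 (38.5%) of those not called. The gamma-activated sequence was found in 5 of 18 genes called lower (27.8%) and in 5 of 9 not called (55.6%). Counted by window, it stood in 5 of 20 (25%) and in 5 of 13 (38.5%). These few genes were compared without a test. A match is a description of letters and not a shown binding site. The stretches printed here are those of the 5 genes with the largest falls in untreated cells among genes with a match, followed by the 5 genes with a match that were not called, so that the letters of genes from both sets can be read. All 10 were picked for holding a match. Sequences are from RefSeq on GRCm38.p6, 5′ to 3′ on the strand of the gene, with matches in capitals.
Igtp, chr11:58199510-58199543, plus strand: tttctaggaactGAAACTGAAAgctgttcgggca
Ifit1, chr19:34640773-34640825, plus strand: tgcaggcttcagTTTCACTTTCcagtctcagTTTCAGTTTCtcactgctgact
Ifih1, chr2:62646206-62646235, minus strand: gagaagagaatcGAAACAGAAAccgatctg
Gbp3, chr3:142559987-142560026, plus strand: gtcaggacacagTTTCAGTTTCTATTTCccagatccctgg
Gbp2, chr3:142620592-142620625, plus strand: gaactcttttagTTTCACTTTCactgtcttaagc
Stat2, chr10:128270264-128270297, plus strand: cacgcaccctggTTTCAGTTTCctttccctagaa
Irgm1, chr11:48871423-48871462, minus strand: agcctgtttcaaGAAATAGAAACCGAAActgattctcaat
Ifitm3, chr7:141010704-141010754, minus strand: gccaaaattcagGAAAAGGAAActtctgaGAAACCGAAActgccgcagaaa
Ddx58, chr4:40239802-40239835, minus strand: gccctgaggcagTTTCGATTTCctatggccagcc
Eif2ak2, chr17:78882533-78882566, minus strand: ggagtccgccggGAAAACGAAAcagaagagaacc

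Among the transcription factors, Irf7 and Irf9 fell while Stat2 and Irf1 were not called. Irf7, which amplifies the production of type I interferon, had intensities of 31.4, 27.8 and 24.6 in antibody-treated cells and 19.6, 26.3 and 28.1 in untreated cells. In lung it ran between 141 and 341, with a median of 241. No cell array came near the lowest lung, and the log2 change was -2.28 ± 0.15 (SE, adjusted p = 4.85e-13) in antibody-treated and -2.41 ± 0.15 (SE, adjusted p = 1.58e-13) in untreated cells. Irf9, the DNA-binding partner of the STAT proteins, had 152, 141 and 128 in antibody-treated cells and 134, 153 and 120 in untreated cells, with 250 to 463 and a median of 367 in lung. It fell by 1.04 in antibody-treated and by 1.07 in untreated cells on the log2 scale, just past the 2-fold minimum (adjusted p = 3.84e-09 and 2.41e-09). Without antibody replicate 3 its change in antibody-treated cells was -0.995 and no longer passed.

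Stat2 lay just inside the 2-fold minimum. It had 35.4, 27.8 and 30.0 in antibody-treated cells and 27.8, 30.7 and 37.6 in untreated cells, against 67.2 to 117 with a median of 94.2 in lung, so no cell array overlapped the lungs. Its log2 change was -0.94 in antibody-treated cells (adjusted p = 1.25e-07) and -0.91 in untreated cells (adjusted p = 1.99e-07). Without antibody replicate 1, or without untreated replicate 3, the change was -1.01 and passed. It also passed with an offset of 1, at -1.19 in antibody-treated and -1.15 in untreated cells. Without normalization between arrays it passed at -1.20 and -1.17, so the call of Stat2 depends on the processing. Irf1, an activator of many of these genes and of antigen presentation, averaged 1290 ± 355 in antibody-treated and 1318 ± 553 in untreated cells (SD, n = 3 each), against 1604 ± 241 in lung (SD, n = 16). Its cell arrays overlapped the lungs, at a log2 change of -0.35 and -0.38.

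**Figure D3:**
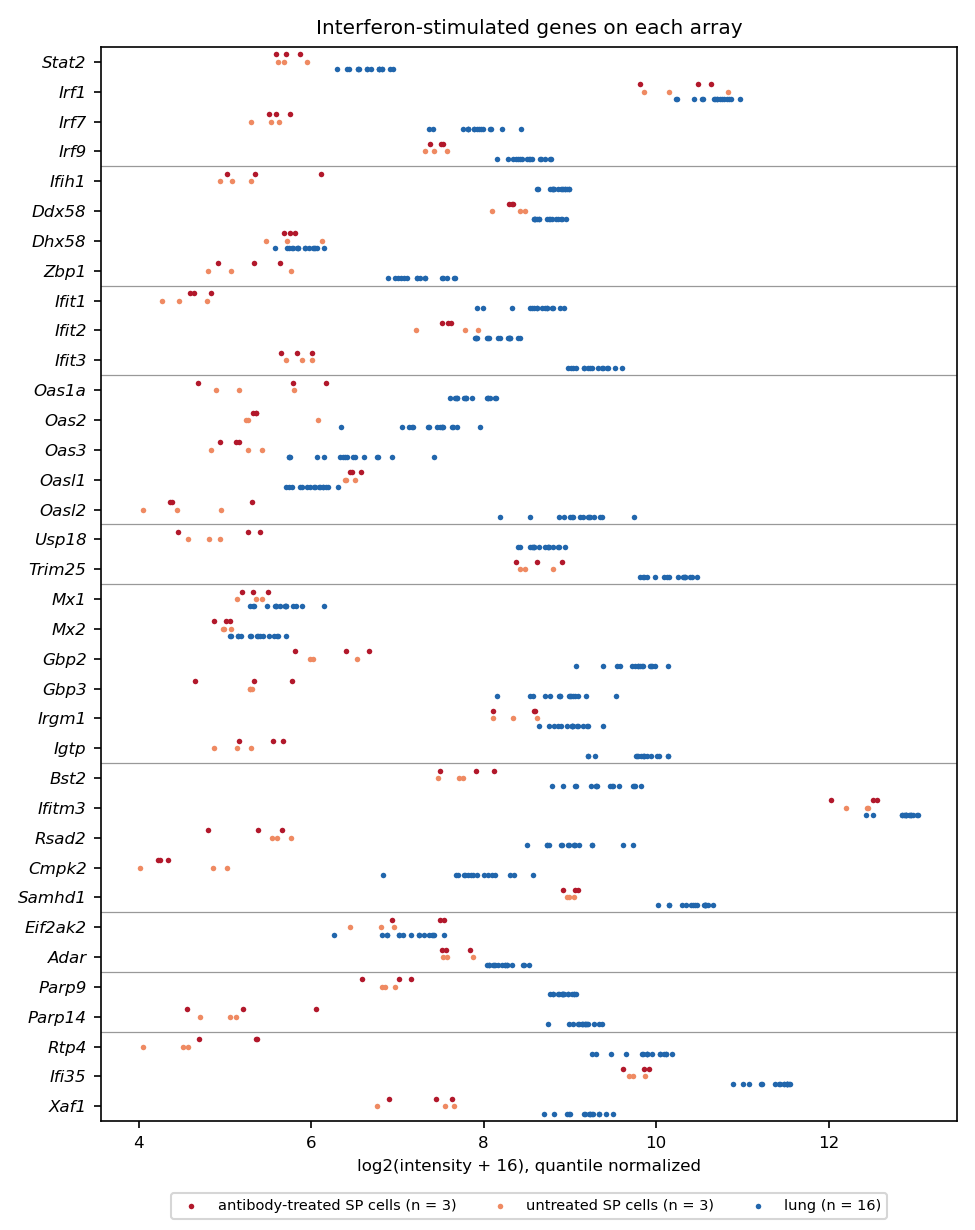
Log2(intensity + 16) after quantile normalization of the 36 measured genes on each array, as points, for antibody-treated and untreated side population cells (n = 3 each) and lung (n = 16), with lines between groups of genes of like role. The cell arrays of Rtp4, Igtp and Oasl2 lie far left of the lungs. Those of Irf1, Dhx58 and Eif2ak2 overlap the lungs, with some arrays of Irf1 and Dhx58 left of all lungs.

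The cytosolic sensors of nucleic acid did not move alike. Ifih1, which binds long double-stranded RNA, had 44.3, 21.3 and 13.997 in antibody-treated cells and 19.5, 13.1 and 14.99 in untreated cells. In lung it lay between 378 and 518, with a median of 463. Every lung was above every cell array, and the change was -3.36 ± 0.14 in antibody-treated and -3.74 ± 0.14 in untreated cells (SE, adjusted p = 2.51e-17 and 2.66e-18). Zbp1, a sensor that can start necroptosis, fell, with changes of -1.97 and -2.06. Ddx58, which encodes RIG-I and binds the ends of viral RNA, changed by -0.41 and -0.40, within the 2-fold minimum, at 277 ± 3.85 in antibody-treated and 282 ± 42.3 in untreated cells (SD, n = 3 each) against 421 ± 29.4 in lung (SD, n = 16). Dhx58, a regulator of the other RNA sensors, changed by -0.14 and -0.12 at its chosen probe set, but a second set was called lower, at -1.08 and -1.38, so its call depends on the set.

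Of the IFIT genes, whose products bind viral RNA and hold back its translation, Ifit1 and Ifit3 fell. Ifit1 had 9.99, 7.93 and 6.71 in antibody-treated cells and 9.46, 2.99 and 4.80 in untreated cells, against 224 to 518 with a median of 403 in lung. It was below the 40th percentile of the array on all 6 cell arrays, so the change of -3.90 ± 0.16 and -4.08 ± 0.16 (SE, adjusted p = 6.21e-17 and 2.38e-17) depends on the offset of 16. Ifit3 changed by -3.43 and -3.39. Ifit2 changed by only -0.58 and -0.51 and was not called, with 154 ± 9.71 in antibody-treated and 164 ± 46.6 in untreated cells (SD, n = 3 each) against 283 ± 48.2 in lung (SD, n = 16). In untreated cells the 95% intervals of the change ran from -0.78 to -0.25 for Ifit2 and from -3.63 to -3.15 for Ifit3. The difference between the genes was not tested.

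The OAS genes make or resemble the enzymes that make oligoadenylates, which activate RNase L, and 4 of 5 fell. Oasl2 had 19.4, 4.41 and 3.60 in antibody-treated cells and 12.5, 5.06 and 0.0276 in untreated cells, whereas lung ran from 258 to 843 with a median of 564. All 6 cell arrays were near background and the change was -4.39 ± 0.22 and -4.60 ± 0.22 (SE, adjusted p = 3.45e-15 and 1.31e-15). Oas1a changed by -2.32 and -2.58, Oas2 by -2.03 and -1.84, and Oas3 by -1.33 and -1.23. Oasl1, which in mouse restrains the translation of Irf7, was the exception in sign. It averaged 61.7 ± 5.13 in antibody-treated and 58.1 ± 3.10 in untreated cells (SD, n = 3 each), against 52.4 ± 8.62 in lung (SD, n = 16), and it did not reach 2-fold at a log2 change of 0.49 and 0.43 (adjusted p = 0.000289 and 0.00107). On the deposited scale its arrays overlapped.

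Both measured genes of the ISG15 system fell. Usp18, the protease that removes ISG15 from proteins and dampens the type I receptor, had 18.4, 22.8 and 4.87 in antibody-treated cells and 6.14, 10.7 and 12.2 in untreated cells, against 303 to 487 with a median of 410 in lung. Its change was -3.63 ± 0.14 in antibody-treated and -3.89 ± 0.14 in untreated cells (SE, adjusted p = 1.13e-17 and 2.55e-18). Trim25, a ubiquitin ligase that activates RIG-I, fell, with changes of -1.53 and -1.60 and 1 of its 3 probe sets not called (-0.41 and -0.59), but was still well expressed, at 359 ± 70.4 in antibody-treated and 342 ± 66.5 in untreated cells (SD, n = 3 each) against 1139 ± 193 in lung (SD, n = 16).

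Of the interferon-induced GTPases, which attack viral capsids or the vacuoles of intracellular microbes, Igtp, Gbp2 and Gbp3 fell. Igtp had 25.6, 29.7 and 16.8 in antibody-treated cells and 19.7, 17.02 and 11.03 in untreated cells, while lung lay between 550 and 1118 with a median of 908. The groups stood far apart, at a change of -4.32 ± 0.17 and -4.68 ± 0.17 (SE, adjusted p = 1.32e-17 and 2.55e-18). Gbp3 changed by -3.64 and -3.60, and Gbp2 by -3.46 and -3.57. Irgm1, which regulates the other GTPases of its family, changed by -0.58 and -0.66 and was not called, with 305 ± 62.2 in antibody-treated and 290 ± 63.99 in untreated cells (SD, n = 3 each) against 513 ± 73.4 in lung (SD, n = 16). Mx1 and Mx2, restriction factors of viral ribonucleoproteins, were low everywhere. Mx1 averaged 20.8 and 20.2 in the antibody-treated and untreated cells against 37.0 in lung, and Mx2 averaged 13.2 and 13.9 against 27.2. They were the only 2 of the 36 genes that did not exceed the 40th percentile on every lung array.

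Among effectors that act on membranes, lipids and nucleotides, 4 of 5 fell. Rsad2, which encodes viperin, a maker of chain-terminating nucleotides, had 28.4, 10.6 and 21.7 in antibody-treated cells and 25.8, 27.9 and 32.0 in untreated cells, against 323 to 800 with a median of 509 in lung. Its change was -3.75 ± 0.19 and -3.40 ± 0.19 (SE, adjusted p = 2.05e-15 and 1.45e-14), with no overlap. Cmpk2, a nucleotide kinase encoded beside Rsad2, changed by -3.65 and -3.29. Bst2, the tetherin that holds budding virus on the cell surface, fell, with changes of -1.54 and -1.73, and Samhd1, which degrades the building blocks of DNA, fell, with changes of -1.40 and -1.42, while still at 483 ± 43.2 and 479 ± 13.7 (SD, n = 3 each) against 1361 ± 170 in lung (SD, n = 16). Of the 5 probe sets of Samhd1, 2 were not called, at -0.84 and -0.89 and at -0.66 and -0.69. Ifitm3, which blocks the fusion of incoming virus, stayed close to lung. It averaged 5796 ± 1329 in antibody-treated and 5496 ± 475 in untreated cells (SD, n = 3 each), against 7154 ± 912 in lung (SD, n = 16), at a change of -0.50 in each group.

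Adar and Eif2ak2, grouped here as further enzymes that bind double-stranded RNA, were not called at their chosen probe sets. Adar, the enzyme that edits adenosine to inosine, had 151, 184 and 150 in antibody-treated cells and 197, 148 and 149 in untreated cells, against 235 to 352 with a median of 299 in lung. Its arrays did not overlap the lungs, and the change of -0.59 ± 0.11 and -0.57 ± 0.11 (SE, adjusted p = 1.73e-05 and 2.58e-05) was below 2-fold, although another of its 3 probe sets was called lower at -1.19 and -1.18. Eif2ak2, the kinase PKR that stops translation, changed by 0.19 and -0.39 at its chosen probe set. A second set was called higher at 1.08 and 1.16, and its other set changed by 0.72 and 0.29, so its sets disagree on direction in untreated cells and on the call in both groups.

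The ADP-ribosyltransferase genes fell. Parp14, a regulator of STAT6 and of viral replication, had 41.6, 18.2 and 6.23 in antibody-treated cells and 15.7, 9.09 and 14.5 in untreated cells, with 389 to 634 and a median of 571 in lung. Its antibody-treated arrays differed among themselves more than the untreated ones, yet all lay far below lung, at -3.87 ± 0.17 and -4.18 ± 0.17 (SE, adjusted p = 1.4e-16 and 2.77e-17). Parp9, its partner in interferon signalling, fell, with changes of -2.01 and -2.05.

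The remaining genes also fell. Rtp4, an interferon-induced chaperone of receptor transport, had 20.9, 21.5 and 8.34 in antibody-treated cells and 5.30, 0.309 and 6.19 in untreated cells, against 587 to 1141 with a median of 984 in lung. Its change on the log2(intensity + 16) scale was the largest of the 36, though it lay below the 40th percentile on all 6 cell arrays and its rank depends on the offset, at -4.71 ± 0.18 in antibody-treated and -5.47 ± 0.18 in untreated cells (SE, adjusted p = 5.7e-18 and 2.4e-19). Ifi35, an inflammatory modulator, fell, with changes of -1.56 and -1.60 but at high levels, with 867 ± 81.3 in antibody-treated and 848 ± 90.7 in untreated cells (SD, n = 3 each) against 2598 ± 369 in lung (SD, n = 16). Xaf1, a promoter of apoptosis, fell, with changes of -1.83 and -1.84, but its second probe set was not called, at -0.69 and -0.38.

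A low level in the cells was not the same as no expression. On all 6 cell arrays 18 of the 36 genes lay above the array's 40th percentile, an intensity of 24.6 to 25.7 in antibody-treated and 24.9 to 25.8 in untreated cells. A further 8 genes lay below it on all 6, namely Ifit1, Oas3, Oasl2, Usp18, Mx1, Mx2, Cmpk2 and Rtp4, and 10 lay above it on some. Of the 24 genes called lower in each comparison, 9 were above the percentile on all 6 cell arrays and 6 below it on all 6.

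Antibody treatment was compared with no treatment on the 6 cell arrays alone, and none of the interferon-stimulated genes was called. The filter on low values left 22 of 36 genes, and 0 of 22 passed, where 0.0236% of all genes tested were called, 3 of 12711 and all lower. At an unadjusted p below 0.05 there was 1 of 22, Eif2ak2, where 0.740% of all genes were. The median log2 difference was 0.03, against -0.02 over all genes, with 14 of 22 genes above 0, where 43.7% of all genes were. The 95% interval lay within a 2-fold change in either direction for 20 of 22 genes, where 97.3% of all genes did so. This gives bounds of the difference and does not show that the groups were alike.

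**Figure D4:**
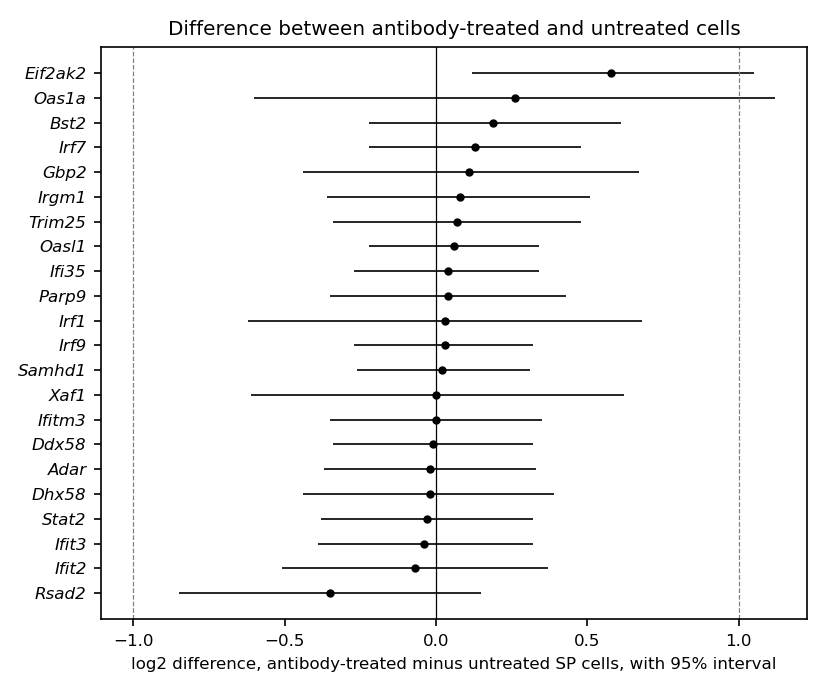
Log2 difference of antibody-treated minus untreated side population cells (n = 3 each) for the 22 genes tested, with the 95% interval of the model and dashed lines at a 2-fold difference. All lie between -0.35 (Rsad2) and 0.58 (Eif2ak2), and the intervals of Oas1a and Eif2ak2 cross the upper dashed line.

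Eif2ak2 had 148, 88.3 and 147 in antibody-treated cells and 89.2, 80.8 and 58.2 in untreated cells. One antibody-treated array lay within the untreated range, and the difference was 0.58 with an interval of 0.12 to 1.05 (limma unadjusted p = 0.0196, adjusted p = 1). Its other probe sets gave 0.42 and -0.08. Rsad2 had the lowest difference, -0.35 with an interval of -0.85 to 0.15, and its groups overlapped on the deposited scale, at 10.6 to 28.4 in antibody-treated and 25.8 to 32.0 in untreated cells. The core factors Stat2, Irf9 and Irf7 differed by -0.03, 0.03 and 0.13, with intervals of -0.38 to 0.32, -0.27 to 0.32 and -0.22 to 0.48.

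The 14 genes below the filter included Rtp4, Igtp, Ifit1 and Usp18 and were not tested in this comparison. Of all 36 genes, Rtp4 was the only one whose cell groups did not overlap, with 8.34 to 21.5 in antibody-treated and 0.309 to 6.19 in untreated cells, all under the 40th percentile. Of all genes tested, 1.24% did not overlap in the higher direction and 1.68% in the lower.

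Antibody replicates differed among themselves in these genes. Replicate 1 was the highest of the 3 antibody-treated arrays for 13 of 22 genes and replicate 3 the lowest for 13 of 22, whereas over all 12711 genes replicate 1 was the highest for 19.6% and replicate 3 the lowest for 33.6%. Irf7 at 31.4, 27.8 and 24.6 and Irf9 at 152, 141 and 128 show this order. In untreated cells replicate 1 was the highest for 12 of 22 genes, against 38.3% of all genes. Leaving out any cell array called 0 of the interferon-stimulated genes between the treatments.

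Other genes of the pathway were counted in lists drawn up by role, with earlier results of these data known. Their counts stand beside shares over all genes tested of 23.9% lower and 17.2% higher in antibody-treated cells and 23.7% lower and 17.8% higher in untreated cells. Of 19 interferon ligands 10 had a probe set, and 1 of 4 tested fell in antibody-treated cells and 1 of 5 in untreated cells, near the share over all genes. Ifna2 had 17.5 ± 1.49 in antibody-treated and 19.3 ± 3.99 in untreated cells (SD, n = 3 each), against 170 ± 48.3 in lung (SD, n = 16), a change of -2.22 and -2.15. Ifnb1, the interferon that cells make first after sensing RNA, averaged 26.3 ± 7.28 in antibody-treated and 39.9 ± 8.33 in untreated cells, against 11.1 ± 3.47 in lung, and was called higher in untreated cells at 1.28 (adjusted p = 7.85e-10). It passed the filter on low values only through the untreated cells, so a call there had to point upward. It was below that filter in the comparison of antibody-treated cells with lung, and antibody-treated and untreated cells differed by -0.43 (adjusted p = 1).

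Of the receptors, kinases and STAT genes, 5 of 10 fell in each cell group and none rose, with a median of -0.83 in antibody-treated and -0.89 in untreated cells. Stat3 changed by -2.46 and -2.79, Jak1, a kinase of both interferon receptors, by -2.04 and -2.10, Il10rb by -1.57 and -1.60, and Ifngr1, the ligand-binding chain of the interferon gamma receptor, by -1.02 and -1.13. Ifnar1, a chain of the type I receptor, was at 281 ± 30.3 in antibody-treated and 272 ± 16.1 in untreated cells (SD, n = 3 each) against 273 ± 30.5 in lung (SD, n = 16), and was not called.

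Genes that lead from nucleic acid to interferon production fell in 6 of 17 cases in each cell group, with none higher, against 23.9% and 23.7% of all genes lower, and a median of -0.29 in antibody-treated and -0.43 in untreated cells. Irf8, a factor of myeloid cells and B cells, changed by -4.65 and -4.48, Unc93b1, which carries endosomal Toll-like receptors, by -3.16 and -3.30, Tlr3, the endosomal RNA receptor, by -2.65 and -2.66, and Irf2 by -1.84 and -2.10. The adaptor Mavs at 0.01 and 0.10 and the kinase Tbk1 at 0.13 and 0.08 were not called. Among negative regulators 6 of 16 fell and 1 rose in each cell group, against the same shares over all genes. Rnf125 changed by -3.51 and -3.65, Nlrc5, also an activator of MHC class I genes, by -2.88 and -2.89, Ptpn6, a phosphatase of blood cells, by -2.75 and -2.65, and Socs2 by -1.94 and -2.04, while Tnfaip3, a brake on NF-kappaB, rose by 1.41 and 1.36.

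A second list of interferon-stimulated genes, outside the 38, was counted in the same way. In antibody-treated cells 39 of 55 fell and 2 rose, and in untreated cells 38 of 55 fell and 2 rose, where 23.9% and 23.7% of all genes were called lower and 17.2% and 17.8% higher. Trim30a changed by -5.14 and -5.48, Irgm2 by -4.22 and -4.70, Gbp7 by -4.58 and -4.67 and Trim34a by -4.49 and -4.66. Mlkl, the effector of necroptosis, rose by 2.25 and 2.27. By limma, 0 genes of these 5 lists were called between antibody-treated and untreated cells, while 1 of 3 tested ligands and 2 of 39 genes of the second list had an unadjusted p below 0.05, and 0 of the others, where 0.740% of all genes did.

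Across the lungs, the interferon-stimulated genes differed by array. The lung labelled male 4 was the lowest of 16 for 15 of the 36 genes and the lung labelled male 3 for 7, so these 2 arrays held the lowest value of 22 genes. Their median deviation from the lung median was -0.33 and -0.26 on the log2 scale, with 32 and 29 of 36 genes below that median, while the median deviation over all genes tested was 0.00 and -0.01. The lung labelled female 1 was the lowest for 4 genes, at a median deviation of -0.18, with 30 of 36 genes below the lung median. The lung labelled female 2 was the highest for 13 genes, at a median deviation of 0.21. How often each lung was the lowest or highest over all genes was not counted. Rtp4 shows the pattern, at 587 and 598 in the lungs labelled male 4 and male 3 and 1141 in that labelled female 2, and Irf7 at 141, 160 and 341.

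**Figure D5:**
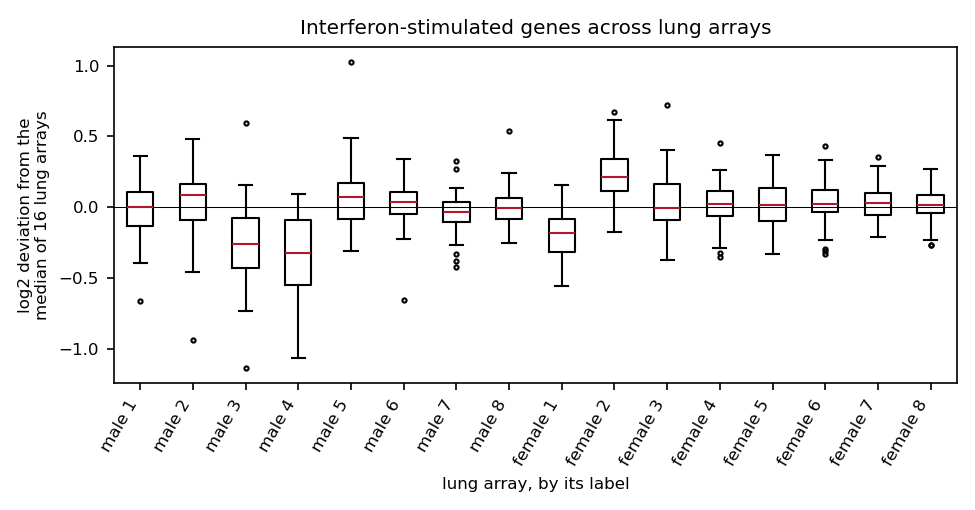
Log2 deviation from the median of the 16 lungs for the 36 measured genes, as a box for each lung array (red line at the median, box over the quartiles, whiskers to 1.5 times the box). The boxes of male 4, male 3 and female 1 have medians of -0.33, -0.26 and -0.18, and that of female 2 has 0.21.

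The 2 lowest of these lungs also had the lowest endothelial marker sums, 14456 in the lung labelled male 4 and 19639 in that labelled male 3. The other 14 had 22694 to 28558, and among them the lung labelled female 1, also low in these genes, had 25688. The leukocyte marker sums of male 4 and male 3, 12592 and 12948, lay within the 10020 to 14086 of the other lungs, and the lung labelled female 2 had 13521. The part of these markers in the spread was not tested. The lungs were also compared by label number. Between those numbered 5 to 8 and those numbered 1 to 4 only Trim25, 1 of 36 genes, did not overlap. It had 1270 to 1391 in numbers 5 to 8 and 872 to 1113 in numbers 1 to 4. Of all genes, 1.21% did not overlap in that direction and 1.66% in the other. The median log2 difference was 0.09 over the 36 genes and 0.02 over all genes. Spread over the 16 lungs ran from 0.31 on the log2 scale for Parp9 to 1.74 for Cmpk2, from the lowest to the highest array.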

How the data were processed

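The deposited values are linear intensities, 1 for each probe set of each array, and the submitters' processing notes name PLIER for them. The PLIER version and settings, and whether arrays were scaled to each other, are not given in the sources used here. Of 45101 probe sets, 64 controls were left out. The deposited intensities were transformed to log2(intensity + 16) and quantile normalized over 22 arrays. Genes were named from the platform annotation and tested if they lay above the array's 40th percentile on at least 3 compared arrays. Models were fitted over all genes with limma 3.58.1 in R 4.3.3 (variance trend, two-sided, Benjamini-Hochberg at 0.05, and a change of at least 2-fold against lung), and the scripts were tested on simulated data. Lung was 1 group of 16, since 2 arrays went against their label of sex. SE and intervals are those of the model, and SD is over arrays. Values are given per array for the gene of each role with the largest change against lung and for Stat2, Irf9 and Irf7, and for each pathway list up to 4 genes with the largest change in untreated cells. Some other genes were added after their values were seen: Ifnb1, Ifnar1, Mavs, Tbk1, Tnfaip3, Mlkl, Eif2ak2, Oasl1, Epcam, Krt19, Myc, Ptprc and Scgb1a1. The members and lists were chosen with earlier results of these data known. Alternatives are given with the closing limits.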

Additional observations from a re-analysis of the deposited data

How the results depend on the processing

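Of the 36 genes, 22 to 25 fell in each cell group under every alternative that kept the 2-fold minimum. No called gene reversed its direction, while reversals among genes not called were not counted. With an offset of 64 the median was -1.39 in antibody-treated and -1.50 in untreated cells, and Irf9 and Oas3 were lost. Averaging all probe sets of a gene gave -1.53 in untreated cells, and with the 60th percentile filter, which left 32 genes, it was -1.99 in antibody-treated cells. With no minimum change 1 gene was higher in each cell group, and 33 and 34 genes were called in antibody-treated and untreated cells. With at least 4-fold 16 were called in each. Over all genes, antibody-treated cells had 5472 lower and 5380 higher probe sets when every set was tested, 6247 and 6010 genes with no minimum change, and 1844 and 768 at 4-fold. Untreated cells had 5520 and 5493, 6192 and 6215, and 1893 and 772. Without normalization the median of all genes moved to -0.18 in antibody-treated and -0.15 in untreated cells, and the medians of the 36 to -1.87 and -1.98, while median centring gave 0.09 and 0.12 for all genes and lost Irf9 in antibody-treated cells, at -0.98. Between treatments, 1 gene was lower with an offset of 1 and 1 higher with all 22 arrays, and leaving out a cell array gave 0 to 3 lower and 0 to 2 higher. Without untreated replicates 1, 2 or 3 none of the 3 genes was called lower. With the replicate number as a block, 24, 24 and 0 of the interferon-stimulated genes were called and 2 genes were lower between treatments. Same-numbered cell arrays correlated at 0.066, -0.260 and 0.068 in their deviations from the group mean, and arrays of unlike number at -0.264 to 0.260. With only 3 arrays in a group this cannot settle whether the numbers pair the samples. Lungs numbered 1 to 4, or 5 to 8, taken alone (chosen after seeing the data) gave 24 lower in each cell group. The number of arrays and the background of the cell arrays limit what could be detected, and 14 of the 36 genes could not be tested between treatments.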
